A study of Mus musculus with 3 samples.

Results

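The genes described here are 6 of the 32285 genes in the count tables: Ikbke and Tbk1, which encode the kinases IKKε and TBK1, Tank and Azi2, which encode adaptors that bind both kinases, Traf3, which encodes a ubiquitin ligase and scaffold upstream of them, and Irf3, which encodes a transcription factor that they phosphorylate. The members were chosen by name around Ikbke, which was selected on its count ratio in non-classical monocytes (ncMono) of leukemic over naive mice, among the largest rises there, so the Ikbke values of ncMono-like cells are given as a description. PB leukocytes from naive wild-type Balb/C mice and from wild-type Balb/C mice transplanted with BBC2 SCLL cells were compared, with the engrafted mice bled at day 11 (D11, intermediate stage) and at day 14 (D14, late stage). BBC2 is a single leukemia line that carries the BCR-FGFR1 chimeric kinase and gives a pro-B-cell-like disease, and the engrafted mice were young females. Blood was cleared of red cells and dead cells and measured by 10x 3′ scRNA-seq in 3 libraries, 1 per condition. The number of mice behind each library is not given in the sources used here.

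Sensors of foreign nucleic acid and of bacterial lipid signal through adaptor proteins to TRAF3, which brings in TBK1 and IKKε. The adaptors TANK and AZI2 (also called NAP1) hold the kinases in separate complexes, and the active kinases phosphorylate IRF3 and IRF7, which then switch on type I interferon and its first target genes. TBK1 is made in most cell types, whereas IKKε is known for its high level in lymphocytes and for its induction by NF-κB in myeloid cells.

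Ikbke (ENSMUSG00000042349) lies on the minus strand of chromosome 1 at 131254343-131279606 in GRCm38, and the antisense genes Gm28914 and Gm28913 overlap it. Tbk1 (ENSMUSG00000020115) lies on the minus strand of chromosome 10 at 121546455-121586787, with no overlapping gene. Tank (ENSMUSG00000064289) is at 61578585-61654171 on chromosome 2, Azi2 (ENSMUSG00000039285) at 118040499-118069794 on chromosome 9, Traf3 (ENSMUSG00000021277) at 111166370-111267153 on chromosome 12 and Irf3 (ENSMUSG00000003184) at 44997648-45002848 on chromosome 7, all on the plus strand. Azi2, Traf3 and Irf3 each have 1 overlapping gene on the opposite strand, namely Cmc1, 4930595D18Rik and Bcl2l12.

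The start regions of the kinase genes differ in their content of CG dinucleotides. They are shown as a description, and any link between this content and the levels of the genes was not tested. Over a window from 250 bases before to 50 bases after the transcription start (RefSeq, GRCm38.p6), Ikbke had 4 CG pairs, where the median over 32851 such windows was 7, and Tbk1 had 37, more than 94.4% of the windows. The first 200 bases of each window, which end before the transcript, read as follows, 5′ to 3′ on the strand of the gene (chr1:131279614-131279813, minus, and chr10:121586845-121587044, minus), with CG pairs in capitals.
Ikbke: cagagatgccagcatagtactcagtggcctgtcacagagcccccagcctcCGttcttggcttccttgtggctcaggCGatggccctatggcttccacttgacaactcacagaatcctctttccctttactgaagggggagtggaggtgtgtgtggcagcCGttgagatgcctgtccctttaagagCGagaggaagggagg
Tbk1: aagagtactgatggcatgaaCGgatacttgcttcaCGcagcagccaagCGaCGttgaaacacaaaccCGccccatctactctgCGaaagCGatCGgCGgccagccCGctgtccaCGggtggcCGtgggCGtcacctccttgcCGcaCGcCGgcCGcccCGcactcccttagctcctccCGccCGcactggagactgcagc
All 4 CG pairs of the Ikbke window were in these 200 bases, as were 20 of the 37 of Tbk1. Of the other members, Azi2 had 36 CG pairs, Irf3 had 18, and Traf3, with 59, had more than 99.9% of the windows. Tank has 4 listed starts, with 1, 3, 12 and 18 CG pairs. The core of an interferon-stimulated response element, GAAA followed by any 2 bases and GAAA again, searched on both strands, was in none of the 9 windows of the members and in 3.44% of all windows. The general form of an NF-κB site, GGG followed by any 5 bases and CC, was not in the Ikbke or Azi2 window. It was in those of Tbk1, Traf3, Irf3 and Tank, and in 50.8% of all windows. The Ikbke window had 1 ETS form (GGAAGT) and 1 AP-1 form (TGA, any base, TCA), neither wholly within the printed bases. These were in 23.8% and 7.81% of all windows. Of the other members, only Azi2 lacked the ETS form and only Tank had the AP-1 form.

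The 3 libraries held 5386 to 9337 barcodes and 30362408 to 65861863 unique molecular identifiers (UMIs), and hemoglobin genes took from 11.2% of UMIs in naive blood to 55.9% at D11. After filtering, 3811 naive, 4567 D11 and 4414 D14 cells were sorted into classes by 8 marker genes each (7 for erythroid-like cells). Of them, 7.29%, 8.54% and 10.2% stayed in no class, including cells in which another class came too close. Any pair of libraries shared at most 18 barcodes. The ncMono-like class (Ace, Treml4, Adgre4 and other markers) had 137, 217 and 641 cells, or 3.59%, 4.75% and 14.5% of cells, and all 5 markers held out of its gate were highest in it in each library. The classical monocyte (cMono)-like class had 138, 243 and 134 cells, with 4 of 5 held-out markers highest in it. T-like cells went from 1281 to 282 and 111, and pro-B-like cells, which carry the early B markers of the leukemia, from 2 to 95 and 704. Levels are given as UMIs per 1000000 UMIs of a class (CPM) with exact 95% intervals for counting error only. With 1 library per condition, no p-value can be given and a difference between conditions cannot be told apart from a difference between libraries.

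Ikbke was low in ncMono-like cells of naive blood and highest there among all classes at D14. The sums held 4 UMIs in naive, 56 at D11 and 1146 at D14, or 3.50 CPM (0.954 to 8.97), 28.4 CPM (21.4 to 36.8) and 172 CPM (162 to 182). These intervals do not overlap. Relative to naive, D11 stood at a log2 ratio of 3.02 (1.58 to 4.94) and D14 at 5.62 (4.26 to 7.50), the latter a fold of 49.1 with an interval from 19.1 to 181. From D11 to D14 the log2 ratio was 2.60 (2.21 to 3.01). It leaves out the naive library but shares the D14 value that Ikbke was chosen on, so it is not separate evidence. Of 6158 genes whose naive and D14 values averaged 20 CPM or more, 5 had a larger rise, which is the property the group was chosen for. The size of the ratio rests on the 4 naive UMIs. With a looser gate of at least 2 markers, the naive sum held 11 UMIs in 149 cells and the log2 ratio at D14 was 4.29.

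The share of ncMono-like cells with at least 1 Ikbke UMI was 2.92% in naive, 19.8% at D11 and 69.6% at D14, at median depths of 8013, 8162 and 9400 UMIs per cell. Thinned to 1000 UMIs per cell, the expected shares were 0.263%, 2.50% and 15.4%. Erythroid-like cells, which should lack the transcript, had it in 3.51%, 0.160% and 0.311% of cells at medians of 9582, 11256 and 6130 UMIs. The naive ncMono-like share, 4 of 137 cells (0.801% to 7.31%), was not separated from the naive erythroid-like share, 2 of 57 cells (0.428% to 12.1%). Whether the naive UMIs came from these cells or from free RNA was not tested. The ratios to naive are ratios to a level not told apart from that of naive erythroid-like cells. The ncMono-like shares at D11 and D14 were above the erythroid-like ones.

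**Figure D1:**
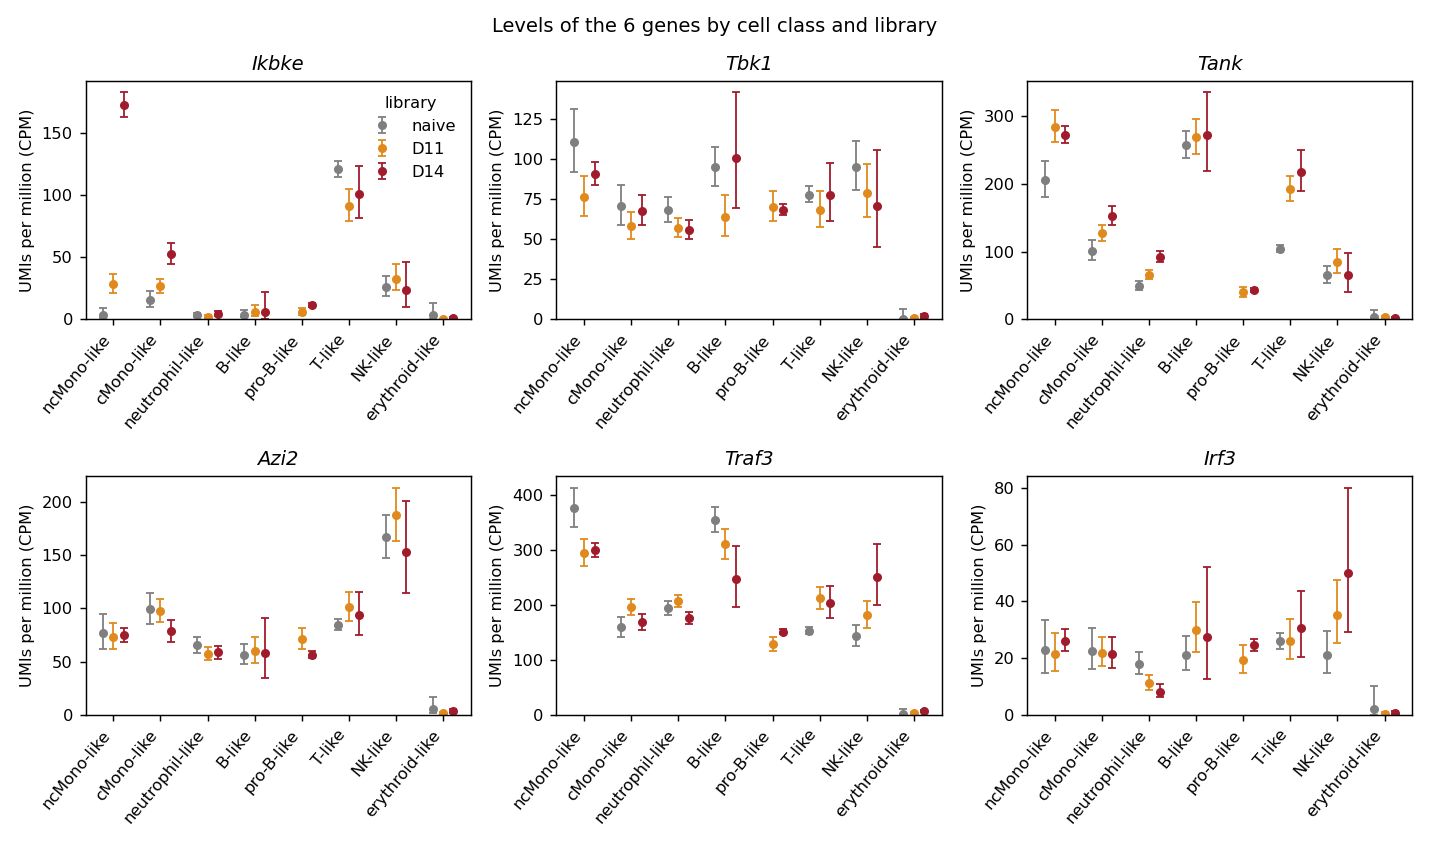
Levels of the 6 genes in CPM (y axis, from 0, a separate scale for each gene) in each cell class (x axis) and library (grey naive, orange D11, red D14), as points with exact 95% counting intervals. Ikbke in ncMono-like cells goes from 3.50 to 172 CPM and passes its T-like level, while in that class the other 5 genes have log2 ratios between -0.54 and 0.46.

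At D14 the Ikbke UMIs were spread over many ncMono-like cells. Of the 641 cells, 195 had none, 151 had 1, 110 had 2, 89 had 3 and 96 had 4 or more, and the 33 cells with most UMIs held 20.2% of them. At D11, 174 of 217 cells had none and no cell had more than 3. In naive blood all 4 UMIs were in separate cells. T-cell markers were low in this class, where the 8 T gate markers summed to 29, 14 and 20 UMIs in the 3 libraries (7, 5 and 5 of 8 seen, with Cd3e, Cd3g and Trac at 0 at D14), against 3627 CPM or more in T-like cells. A T-marker UMI was in 22 of the 137 naive cells (16.1%), 13 D11 cells and 16 D14 cells, which held 2, 5 and 53 Ikbke UMIs. In the cells without one, Ikbke was at 2.11, 27.9 and 170 CPM, and the ratios to naive were 3.73 (1.80 to 6.81) and 6.33 (4.47 to 9.38) on 2 naive UMIs.

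**Figure D2:**
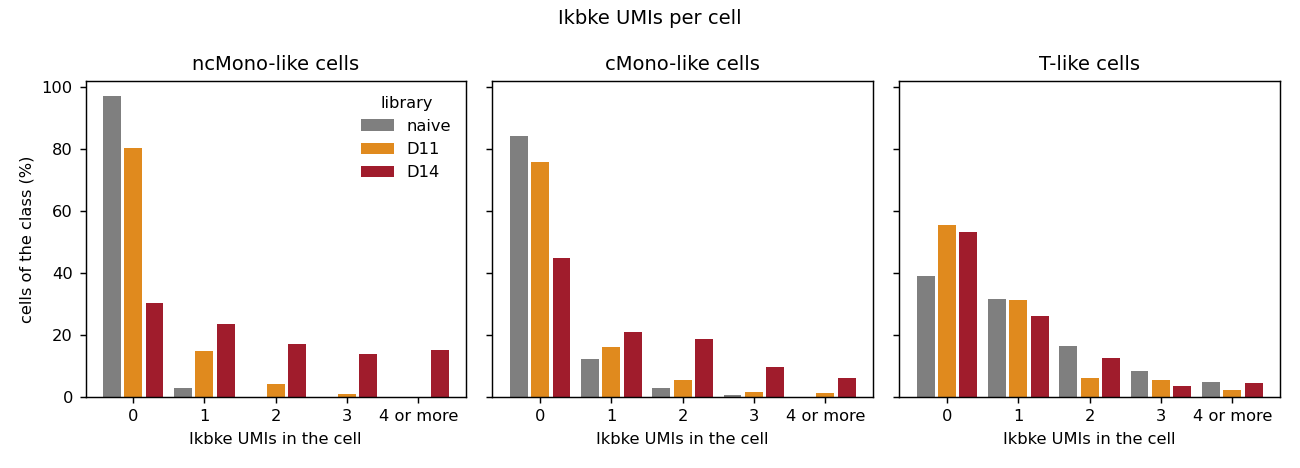
Share of cells (y axis, percent of the class) with 0, 1, 2, 3 and 4 or more Ikbke UMIs (x axis) in ncMono-like, cMono-like and T-like cells of the naive (grey), D11 (orange) and D14 (red) libraries. In ncMono-like cells the share with 0 UMIs goes from 97.1% to 80.2% and 30.4%, whereas in T-like cells it goes from 39.0% to 55.3% and 53.2%.

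In cMono-like cells, Ikbke was also higher in the engrafted mice, by less. It had 28, 89 and 156 UMIs, or 15.7 CPM (10.4 to 22.6), 26.6 CPM (21.4 to 32.8) and 52.3 CPM (44.4 to 61.1). The D14 interval lies above both others, and the naive and D11 intervals overlap. Against naive, the log2 ratio came to 0.77 (0.14 to 1.43) for D11 and 1.74 (1.15 to 2.38) for D14. Within naive blood, Ikbke in ncMono-like cells was below its cMono-like level (log2 ratio -2.16, -4.13 to -0.64), at D11 their levels were not separated, and at D14 it was higher in ncMono-like cells (1.72, 1.48 to 1.97). The cMono-like cells were deeper at D14 (median 20750.5 UMIs) than in naive blood (12825), where 55.2% and 15.9% of cells had an Ikbke UMI, and at 1000 UMIs per cell the expected shares were 5.19% and 1.41%. Markers of ncMono moved with Ikbke in this class, since the 8 ncMono gate markers summed to 346, 392 and 519 CPM in cMono-like cells, against 5074 CPM or more in ncMono-like cells. In the cMono-like cells with no ncMono-marker UMI (28, 55 and 8 cells), Ikbke was at 18.9, 20.8 and 49.6 CPM on 6, 14 and 10 UMIs. The D11 and D14 ratios were 0.14 (-1.33 to 1.81) and 1.40 (-0.21 to 3.14), both with intervals that include 0. With so few cells and UMIs the intervals are wide, and nothing is read from their including 0. The part of ncMono transcripts in the cMono-like value was not tested.

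In T-like cells Ikbke was high throughout, with 1436, 195 and 96 UMIs, or 121 CPM (115 to 127), 91.0 CPM (78.7 to 105) and 101 CPM (81.7 to 123). Compared with naive, D11 had a log2 ratio of -0.41 (-0.63 to -0.19) and D14 one of -0.26 (-0.57 to 0.04), so that only the D11 interval lies below 0. With TMM scaling these ratios were -0.49 and -0.42, so nothing is read from this difference between the intervals. In naive blood the order was T-like, NK-like (26.0 CPM), cMono-like, B-like (3.93), ncMono-like and neutrophil-like (3.35), and the last 3 did not differ beyond counting error. At D14 it was ncMono-like, T-like, cMono-like, NK-like (23.6), pro-B-like (11.6), B-like (6.10) and neutrophil-like (4.42), in which ncMono-like cells were above T-like cells by 0.77 on the log2 scale (0.47 to 1.09). Neighbours from NK-like cells on were not separated. In pro-B-like cells, Ikbke was at 6.07 CPM at D11 and 11.6 CPM at D14, a log2 ratio of 0.94 (0.27 to 1.69). No TMM value was computed for that class. The same ratio was 1.01 (0.03 to 2.05) in neutrophil-like and 0.97 (0.59 to 1.37) in cMono-like cells. In T-like, NK-like and B-like cells its interval includes 0. The pro-B-like difference was thus not particular to that class.

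The class that held most Ikbke transcripts of the blood differed between the libraries, as it did for the other members. Of the 1609 Ikbke UMIs in naive cells, 89.2% were in T-like cells and 0.249% in ncMono-like cells. At D11, of 475 UMIs, 41.1% were in T-like, 18.7% in cMono-like and 11.8% in ncMono-like cells. At D14, of 1883 UMIs, 60.9% were in ncMono-like cells, 14.3% in pro-B-like cells and 5.10% in T-like cells. Each share combines the level in a class with its number of cells and their UMIs per cell. For the other members the largest share also left T-like cells between naive and D14. It was then in ncMono-like cells for Tank (39.5%) and in pro-B-like cells for Tbk1, Azi2, Traf3 and Irf3. Outside erythroid-like cells, T-like cells held 11893993 of all 25880138 UMIs in naive. At D14, pro-B-like cells held 23116990 and ncMono-like cells 6660771 of 45259369. The shares of the members thus follow in part the make-up of each library, and nothing about the members is read from the move. Over all kept cells, Ikbke was at 60.9 CPM in naive, 12.9 at D11 and 36.8 at D14, highest in the library where the ncMono-like level was lowest. Without erythroid-like cells, which hold 14024887 UMIs at D11 and 541972 in naive, it was at 62.1, 20.6 and 41.5 CPM, in the same order.

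**Figure D3:**
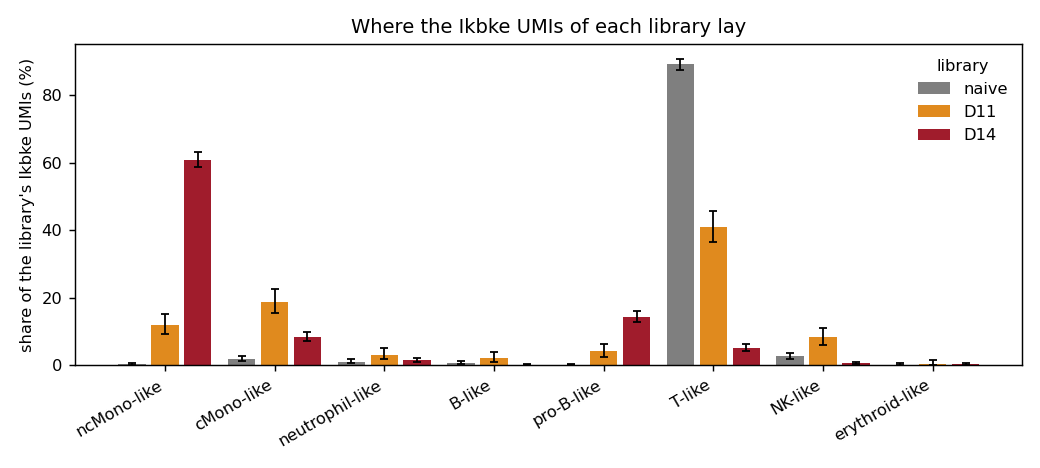
Share of each library's Ikbke UMIs (y axis, percent, from 0) found in each cell class (x axis), with exact 95% binomial intervals, for naive (grey, 1609 UMIs), D11 (orange, 475) and D14 (red, 1883). The tallest bar is T-like in naive (89.2%) and D11 (41.1%) and ncMono-like at D14 (60.9%).

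Tbk1, the partner kinase of IKKε, did not rise with Ikbke. In ncMono-like cells it was at 110 CPM (91.9 to 131) in naive, 76.0 CPM (64.3 to 89.2) at D11 and 90.5 CPM (83.4 to 98.1) at D14. Set against naive, D11 was at -0.54 (-0.89 to -0.18) on the log2 scale and D14 at -0.29 (-0.56 to 0.00). In cMono-like cells it was at 70.4, 58.0 and 67.7 CPM, and both intervals over naive include 0. B-like cells had the lowest D11 ratio, -0.57 (-0.92 to -0.23). In NK-like and T-like cells the D11 ratios were -0.26 and -0.19, with intervals that include 0. The lower D11 value was thus not particular to ncMono-like cells. The range over all leukocyte classes and libraries was narrow, from 55.8 CPM in D14 neutrophil-like cells to 110 CPM in naive ncMono-like cells. In neutrophil-like cells it was slightly lower than naive at D11 and D14 (-0.25 and -0.29), and with TMM scaling these values were -0.05 and -0.06.

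Tank, which encodes an adaptor of both kinases, was higher in the engrafted mice in several classes. In ncMono-like cells it was at 206 CPM (180 to 234), 284 CPM (261 to 308) and 272 CPM (260 to 285). The 2 log2 ratios were 0.46 (0.24 to 0.69) for D11 and 0.40 (0.21 to 0.61) for D14. One D11 cell alone held 55 of the 560 UMIs, and without the top cell of each library the D11 ratio was 0.39. In cMono-like cells Tank was at 101, 127 and 152 CPM, and the D14 ratio was 0.59 (0.34 to 0.85). In neutrophil-like cells it was at 49.7, 65.5 and 92.2 CPM, and the D14 ratio was 0.89 (0.67 to 1.12). All 3 libraries of that class have separate intervals, in the order naive, D11, D14. The make-up of the class moved with it: the 8 cMono gate markers summed to 505, 1000 and 1319 CPM, and Ngp, a granule gene of immature neutrophils, went from 431 to 3034 and 7111 CPM. In the neutrophil-like cells with no cMono-marker UMI (563, 439 and 327 cells), Tank was at 62.9, 37.2 and 105 CPM, so that the D11 ratio turned to -0.76 (-1.30 to -0.24) and the D14 ratio was 0.74 (0.28 to 1.19). Cells without such a UMI also held fewer UMIs each than their class. The cells left out were most of the class, 745 of 1308 in naive, 1176 of 1615 at D11 and 964 of 1291 at D14. Whether they held monocyte transcripts or were another kind of neutrophil was not tested. B-like cells had one of the highest levels, at 257, 269 and 272 CPM, and both intervals over naive include 0.

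In T-like cells Tank was at 104 CPM (98.6 to 110), 192 CPM (174 to 211) and 217 CPM (189 to 249). That is 0.88 (0.71 to 1.04) and 1.06 (0.84 to 1.27) above naive on the log2 scale. The 8 cMono gate markers were also higher in the engrafted libraries, at 86.3, 229 and 162 CPM in T-like cells, with the highest value at D11. The 8 ncMono gate markers summed to 27.7, 20.1 and 29.4 CPM there. NK-like cells carried the cMono markers too, at 362, 389 and 277 CPM, so a UMI of these markers is not particular to monocytes. In the T-like cells with no monocyte-marker UMI (814, 141 and 51 cells), Tank was at 109, 128 and 145 CPM and the ratios were 0.23 (-0.07 to 0.52) and 0.42 (-0.01 to 0.82), both with intervals that include 0. The part of monocyte transcripts in the T-like value, and whether the cells left out were another kind of T cell, was not tested. The D11 T-like class was also the least clean, with 3 of 5 held-out markers highest in it.

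Azi2, which encodes the other adaptor, had similar levels in all 3 ncMono-like sums, namely 77.0, 72.9 and 74.8 CPM. Its log2 ratios to naive had intervals that include 0, from -0.47 to 0.32 (D11) and from -0.37 to 0.30 (D14). In cMono-like cells it was at 98.9, 97.5 and 78.4 CPM, and the D14 ratio was -0.34 (-0.62 to -0.05). NK-like cells had the highest level in each library, at 167, 187 and 153 CPM, and exceeded the next class beyond counting error in all 3. In pro-B-like cells Azi2 was at 71.2 CPM at D11 and 56.5 CPM at D14 (log2 ratio -0.33, -0.54 to -0.12).

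Traf3, which encodes the ubiquitin ligase that recruits the kinases and also holds back the non-canonical NF-κB kinase NIK, had different directions in different classes. In ncMono-like cells it was at 376 CPM (341 to 413), 294 CPM (271 to 319) and 299 CPM (286 to 313). Both engrafted libraries were below naive, by -0.35 (-0.53 to -0.17) and -0.33 (-0.48 to -0.17) on the log2 scale. In cMono-like cells it was at 159, 195 and 168 CPM, and only the D11 ratio had an interval above 0 (0.30, 0.09 to 0.50). In T-like cells it was at 153, 211 and 203 CPM (0.47 at D11 and 0.41 at D14), and in NK-like cells at 143, 181 and 251 CPM (0.34 and 0.81), with all 4 intervals above 0. In the T-like cells with no monocyte-marker UMI, however, Traf3 was at 153, 157 and 167 CPM, and the ratios were 0.04 (-0.23 to 0.29) and 0.13 (-0.26 to 0.51). The NK gate markers in T-like cells summed to 85.3, 159 and 143 CPM, and their part in the value was not tested. In B-like cells it was at 354, 310 and 247 CPM (-0.19 and -0.52), with both intervals below 0. In D14 neutrophil-like cells the ratio was -0.13 and turned to 0.09 with TMM scaling. The naive level was thus the highest of the 3 in ncMono-like and B-like cells and the lowest in NK-like cells.

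Irf3, which encodes the substrate of the kinases, had few UMIs in the monocytes and no detectable difference there. The ncMono-like sums had 22.8, 21.3 and 26.1 CPM (26, 42 and 174 UMIs) and the cMono-like sums 22.4, 21.8 and 21.4 CPM, and all 4 ratios over naive have intervals that include 0. In ncMono-like cells the D14 interval runs from -0.40 to 0.85, so a change of less than about that size could not be seen at this depth. In neutrophil-like cells Irf3 was at 18.0 CPM (14.4 to 22.3), 11.1 CPM (8.69 to 14.0) and 8.18 CPM (6.07 to 10.8), with a D14 ratio of -1.14 (-1.67 to -0.62). With TMM scaling the ratios to naive were smaller, at -0.49 for D11 and -0.91 for D14. In this class the cMono markers and Ngp were higher in the engrafted libraries, as given for Tank, and in the cells with no cMono-marker UMI the Irf3 ratios were -0.87 (D11, -1.91 to 0.08) and -1.42 (D14, -3.12 to -0.06), on 36, 13 and 5 UMIs. In NK-like cells it was at 21.1, 35.3 and 50.1 CPM, with a D14 ratio of 1.25 (0.32 to 2.13) that rests on 17 UMIs in 51 cells. Erythroid-like cells had at most 6.40 CPM of any of the 6 genes in any library.

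**Figure D4:**
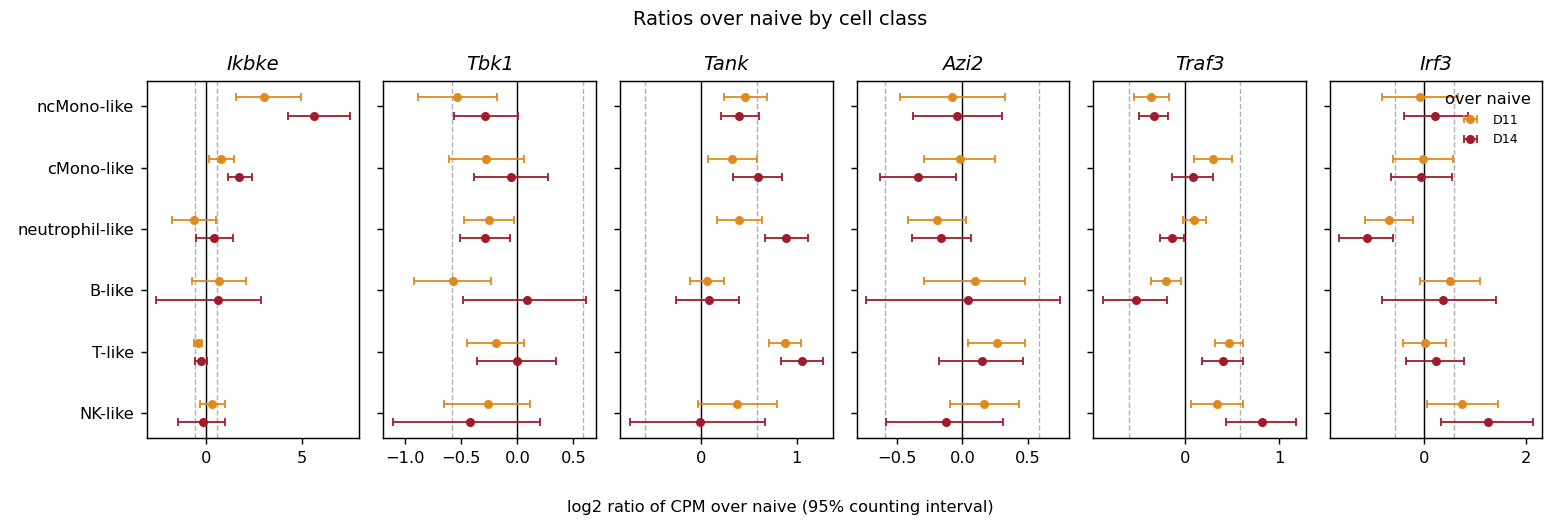
Log2 ratio of CPM over naive (x axis, a separate scale for each gene) of the 6 genes in 6 cell classes (y axis) at D11 (orange) and D14 (red), with 95% counting intervals, a solid line at 0 and dashed lines at 1.5-fold. Ikbke stands at 3.02 and 5.62 in ncMono-like cells, and Traf3 lies below 0 in ncMono-like and B-like cells and above 0 in NK-like cells, and also in T-like cells, where it was 0.04 and 0.13 without cells that carry monocyte markers.

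For a count, a gene was called when its CPM ratio was at least 1.5-fold and its mean over both libraries at least 20 CPM. From naive to D14 in ncMono-like cells, 1 of the 6 members was higher (Ikbke) and 0 were lower, where 8.48% of 6158 genes were higher and 8.17% lower. As the group was drawn up on this contrast, nothing is read from the count. From naive to D11 in that class, 5 members passed the level filter and 0 of them were past the fold in either direction, where 6.81% of 6107 genes were higher and 9.06% lower, and Ikbke, at a mean of 15.9 CPM, did not pass. In cMono-like cells at D14, 2 of 6 were higher (Ikbke and, at 1.51-fold, Tank), where 12.4% of 6179 genes were. At D11, 1 of 6 was higher there (Ikbke), where 3.9% of genes were higher and 4.75% lower. In these 2 counts Ikbke, at 15.7 CPM in naive cMono-like cells, passed the level filter only through its engrafted values. Its calls are thus partly set by the filter. In T-like cells Tank was the 1 of 6 that was higher, at D11 (background 8.33% higher and 4.2% lower) and at D14 (12.9% and 5.82%). In neutrophil-like cells, 4 members passed the level filter, of which 0 were called at D11 (4.64% higher and 9.81% lower) and 1, Tank, at D14 (12.2% and 27.0%). There Irf3, at 18.0 and 8.18 CPM, did not pass. In NK-like cells, Irf3 was higher at D11 (3.71% and 4.9%), and Traf3 and Irf3 were higher at D14 (12.7% and 11.9%). In B-like cells, 0 of 5 were called at D11 (4.03% and 4.23%) or D14 (15.7% and 12.7%), and in pro-B-like cells 0 of 5 from D11 to D14 (7.04% and 2.56%). The D11 and D14 comparisons share the naive library, so they are not separate evidence. Apart from the group's own rule, these shares are read only beside the background, and nothing is called particular to the members.

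The other genes of the pathway were described in 6 lists, with counts by the same rule and, beside each, the median log2 ratio, where the median over all 6158 genes was 0.01. In ncMono-like cells at D14, 8.48% of those genes were higher and 8.17% lower, and in cMono-like cells 12.4% and 10.2% of 6179, with a median of 0.03. The canonical IKK and NF-κB genes had 4 higher and 0 lower of 11 in ncMono-like cells at D14 (background 8.48% and 8.17%), with a median of 0.28. They were Nfkbia, which encodes the inhibitor IκBα and is itself a target of NF-κB, Relb, Nfkb2 and Nfkbie. Nfkbia went from 274 to 627 CPM (log2 ratio 1.19, 1.03 to 1.36), and Rela, which encodes the p65 subunit, had the lowest ratio of the list at -0.38. The genes of the canonical kinases, Chuk and Ikbkb, were at 0.16 and -0.31, within the fold. In cMono-like cells, 2 of 9 were higher (Nfkb2 and Nfkbia, background 12.4%) and 0 lower, with a median of 0.29.

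Of the partners and brakes of TBK1 and IKKε, 1 of 4 was higher in ncMono-like cells at D14, with a median of 0.33. It was Tnfaip3, which encodes the ubiquitin-editing enzyme A20, at 24.5 CPM in naive, 63.3 at D11 and 109 at D14 (log2 ratio 2.16, 1.61 to 2.76). Tax1bp1, a partner of A20, had the lowest ratio at -0.07. Of the other TRAF, cIAP and NIK genes, 1 of 7 was higher (Traf1, 28.0 to 58.4 CPM) and 1 lower (Traf6, -0.71), with a median of -0.02. Traf2 had the largest ratio of that list, 1.41 (0.54 to 2.44), from 9.63 to 25.7 CPM, a mean under the level filter.

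The sensors and their adaptors were divided in ncMono-like cells, with 2 higher and 2 lower of 7 and a median of -0.44. Cd14, which encodes a co-receptor for bacterial lipopolysaccharide, went from 19.3 to 138 CPM (2.84, 2.23 to 3.52), while Tlr4, which encodes the receptor itself, went from 60.4 to 28.2 CPM (-1.10). With 19.3 CPM in naive, Cd14 passed the level filter only through its D14 value. Zbp1, a sensor of Z-form nucleic acid, was at 0.59, just past the fold, and Ddx58, which encodes the RNA sensor RIG-I, at -1.05. In cMono-like cells, 0 were higher and 3 lower of 9 (Ddx58, Ifih1 and Dhx58, all encoding RNA sensors of that family, background 10.2% lower), with a median of -0.39.

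The other interferon regulatory factors had 0 higher and 1 lower of 6 in ncMono-like cells, with a median of -0.40. Irf7, the other factor that the kinases phosphorylate and itself an interferon-induced gene, went from 87.5 to 52.7 and 24.8 CPM (D14 ratio -1.82, -2.19 to -1.45), and Irf1 had the largest ratio at 0.41. Of 10 target genes of IRF3 and IRF7, 1 passed the level filter in ncMono-like cells, Isg15, which went from 35.9 to 7.21 CPM (-2.32). Oasl1 went from 27.1 to 2.25 CPM (-3.59). In cMono-like cells 5 passed and all 5 were lower (Ifit2, Ifit3, Isg15, Oasl1 and Usp18), with a median of -2.76, where 10.2% of 6179 genes were lower. At D14, lower values were not particular to monocytes. In D14 neutrophil-like cells 5 targets passed and all 5 were lower, with a median of -1.56, where 27.0% of 4537 genes were lower. In D14 T-like cells 2 passed, of which 1 was higher and 0 lower (background 12.9% and 5.82%). At D11, 5 of 7 were lower in cMono-like cells (median -0.88, background 4.75%) and 1 of 2 in ncMono-like cells (9.06%). In D11 neutrophil-like cells 0 of 6 were lower (9.81%), with a median of 0.23. In D11 T-like cells 2 of 3 were higher and 1 lower (8.33% and 4.2%). The filter is a mean over both libraries, so a gene with a low D14 value passes only through its naive value, as Isg15 did in ncMono-like cells. The counts of lower targets are thus partly set by the filter and are given as a description. Among the 5 that passed in cMono-like cells at D14, Ifit3 went from 85 UMIs to 2 (log2 ratio -6.15, -9.22 to -4.25). Ifnb1, the gene of interferon-β, had 0 UMIs in the naive, D11 and D14 sums of both monocyte classes. At 3 counts, a sum of 0 allows up to 0.45 CPM in D14 ncMono-like cells and 2.63 CPM in naive ones.

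**Figure D5:**
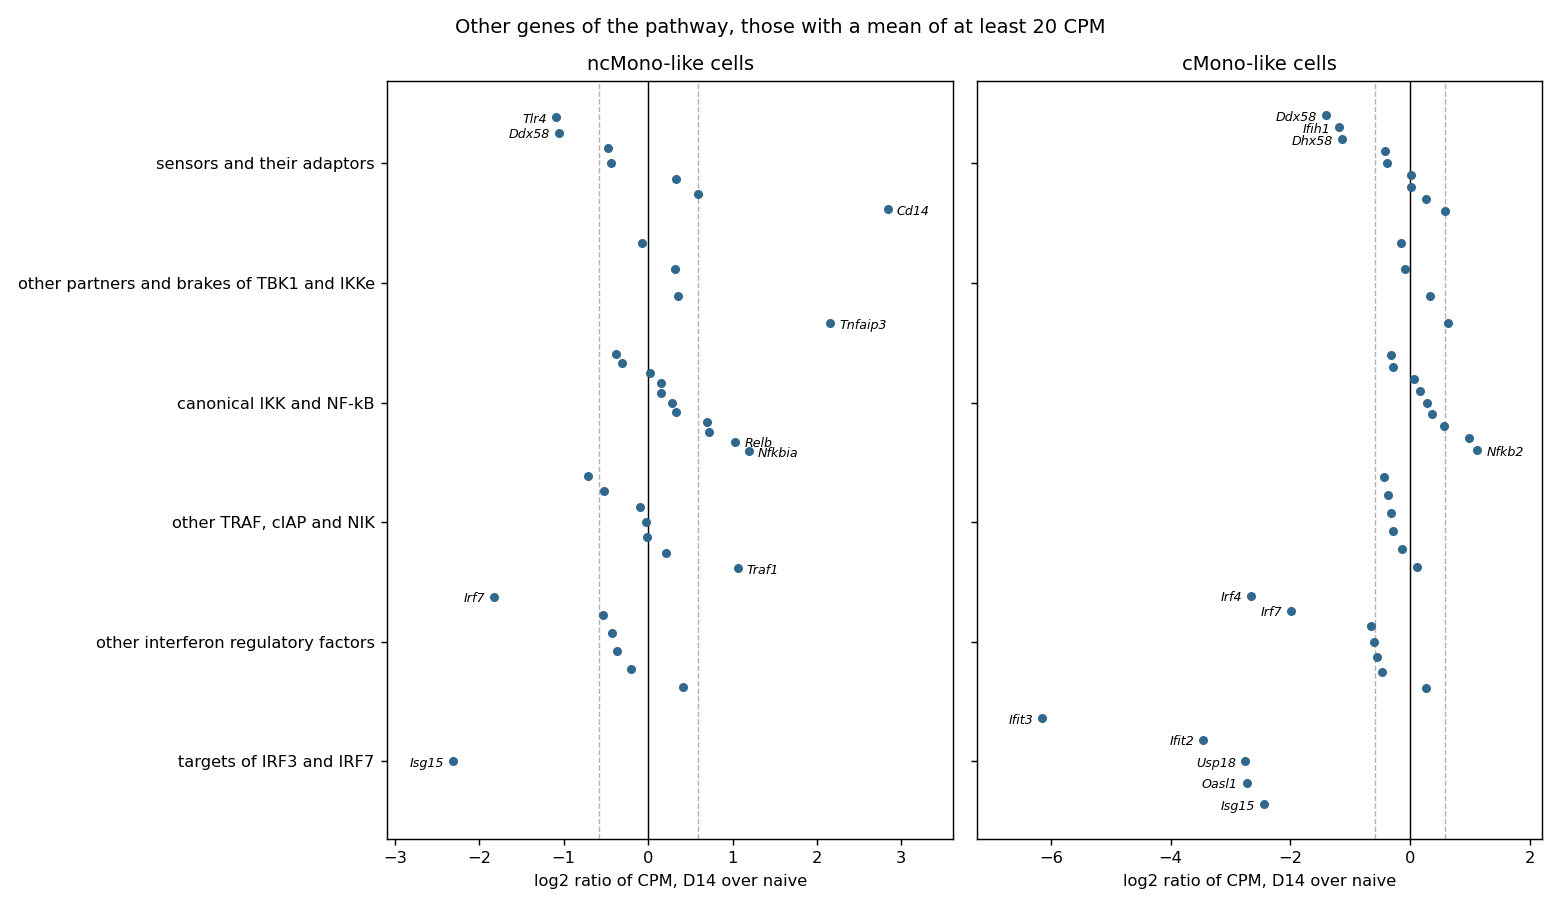
Log2 ratio of CPM, D14 over naive (x axis), of the other pathway genes that averaged 20 CPM or more, 1 point per gene, by list (y axis), in ncMono-like (left) and cMono-like (right) cells, with dashed lines at 1.5-fold and names for genes past 2-fold. Tnfaip3 (2.16) and Cd14 (2.84) lie far to the right in ncMono-like cells, Isg15, the 1 target of IRF3 and IRF7 shown there, lies at -2.32, and all 5 targets shown in cMono-like cells lie to the left.

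The genes whose pattern was most like that of Ikbke over the 23 sums of class and library with at least 20 cells, by Pearson's r of log2(CPM + 1) among 6931 genes, were Trerf1 (0.87), Atp1b3 (0.81), Nrip1 (0.79), AW112010 (0.79) and Tex2 (0.79). Of these, AW112010 went from 18.4 to 59.3 and 322 CPM in ncMono-like cells, and Nrip1 from 86.7 to 173 and 247 CPM. The other members had closer matches, such as Arid1a with Tbk1 (0.99), Man2a1 with Tank (0.96), Arl15 with Azi2 (0.98), Gpr107 with Traf3 (0.99) and Ubr3 with Irf3 (0.98). The points share libraries and the erythroid-like sums, where all 6 members are near 0, which raises any such r. Between members, r ran from 0.48 (Ikbke and Traf3) to 0.98 (Tbk1 and Traf3), and all 5 pairs with Ikbke were at 0.65 or less while the other 10 were at 0.80 or more. The points include the ncMono-like values that Ikbke was chosen on. Its lower r is thus partly set by that choice, and nothing is read from it.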

How the data were processed

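PB leukocytes were measured by scRNA-seq in 3 libraries. The authors made 10x 3′ v3 libraries and deposited filtered matrices of raw counts, whose values are UMIs per gene and barcode. The processing notes name Cell Ranger 7.1.0 and mm10, and the matrix headers name version 5.0.1. Whether reads were counted by strand is not given in the sources used here.

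A barcode was kept when it had 200 genes or more and mitochondrial genes took no more than 10% of its UMIs. A cell was put in a class when at least 3 of the 8 gate markers of the class had a UMI and no other class came within fewer than 2 markers of it. The erythroid-like gate had 7 markers in the data. DC-like and platelet-like cells were under 20 per library and were not analysed further. UMIs were summed per class and library and given as CPM. Levels have exact Poisson intervals, ratios exact conditional binomial intervals and shares Clopper-Pearson intervals (scipy 1.17.1), which cover counting error only, and no test was made with 1 library per condition. Positions are from GENCODE vM21, which held 32158 of the 32285 identifiers. Alternatives were all barcodes, stricter filters, looser and stricter gates, doublet removal (Scrublet in scanpy 1.11.5, which took out 3.04% to 3.66% of cells), TMM factors (edgeR 4.0.16), CPM without ribosomal, mitochondrial and hemoglobin genes, and the mean of per-cell CPM. Sums ranged from 327772 to 23116990 UMIs. The ratio intervals and the gates were tested on simulated counts drawn from the class sums with counting error only. Doublets, spread in depth and differences between libraries were not covered. The members, gene lists and gates were chosen with earlier results of these data known. The genes named were the 6 members, the largest rise and fall of each list in ncMono-like cells and the genes most like each member, and others that were past the fold were named after their values were seen.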

Additional observations from a re-analysis of the deposited data

Results flagged for a closer look

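The same contrast had intervals on opposite sides of 0 in different classes for 3 members, and these differences between classes were not tested. At D11, the log2 ratio of Ikbke over naive was 3.02 in ncMono-like and -0.41 in T-like cells, a difference of 3.43, of which the ncMono-like value is the one the group was chosen on. For Irf3, NK-like and neutrophil-like cells differed by 1.44 at D11 (0.74 and -0.70) and by 2.39 at D14 (1.25 and -1.14). For Traf3, T-like and ncMono-like cells differed by 0.82 at D11 (0.47 and -0.35), and NK-like and B-like cells by 1.33 at D14 (0.81 and -0.52). The T-like Traf3 value at D11 was 0.04 in cells with no monocyte-marker UMI, and the neutrophil-like Irf3 values were -0.87 and -1.42 in cells with no cMono-marker UMI, the former with an interval that includes 0. With TMM factors each of these pairs kept opposite signs, and the neutrophil-like Irf3 values were -0.49 at D11 and -0.91 at D14. The D14 values of the B-like and NK-like classes rest on 42 and 51 cells.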

How the results depend on the processing

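Recomputing 37 log2 ratios of the members under the alternatives gave 370 values, of which 361 lay within the counting interval of the reported value. The 37 covered all members in both monocyte classes and Ikbke between these classes at D14. Of other classes, they covered Tank and Traf3 in T-like, Tank and Irf3 in neutrophil-like and Traf3 and Irf3 in NK-like cells. Other ratios, such as those of B-like cells and of Ikbke in T-like cells, were recomputed with TMM factors at most. Among these, Traf3 in D14 neutrophil-like cells turned from -0.13 to 0.09, and Ikbke in D14 T-like cells went from -0.26 to -0.42. Of the 26 ratios among the 37 whose interval lay off 0, 25 kept their sign throughout. Tank in D11 neutrophil-like cells reversed to -0.76 in cells with no cMono-marker UMI, and the cause was not tested. For Ikbke, the ratios ran from 1.72 to 3.73 at D11 and from 4.29 to 6.33 at D14 in ncMono-like cells, from 1.70 to 1.91 at D14 in cMono-like cells (1.40 in the 8 without ncMono-marker UMIs, too few to be counted here) and from 1.58 to 1.75 between the classes at D14, and the lowest ncMono-like values came with at least 2 gate markers. Outside the interval were Tank in D14 neutrophil-like cells with TMM factors (1.12) and with per-cell means (1.13), Traf3 in D14 ncMono-like cells with per-cell means (-0.49), and, in T-like cells without monocyte-marker UMIs, Tank (0.23 and 0.42) and Traf3 (0.04 and 0.13), and Irf3 in D11 cMono-like cells without ncMono-marker UMIs (0.85). The settings that leave out cells with a marker of another class and the sums without the top cell were chosen after the data were seen. In ncMono-like cells at D14, 522 genes were past the fold upward and 503 downward, against 310 and 256 with a minimum of 50 CPM, 1764 and 3036 with no minimum and 169 and 173 at 2-fold. With TMM factors, the genes called lower in ncMono-like cells at D11 fell from 553 to 366, and Tank in D14 cMono-like cells (0.58) came just under the fold. TMM factors shifted all log2 ratios of neutrophil-like cells by 0.21 at D11 and 0.23 at D14, and those of D14 T-like cells by -0.16. No paired analysis was possible because each condition has 1 library. Depth limits the ratios with few UMIs, such as Ikbke in naive ncMono-like cells (4) and in D14 B-like (2) and NK-like (8) cells.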
